A study of Homo sapiens with 21 samples.

Results

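The beta integrin subunits are the 8 genes ITGB1 to ITGB8, taken by gene symbol from the 60728 rows of a deposited RNA-Seq expression table of SK-N-BE(2) cells, an established MYCN-amplified human neuroblastoma cell line. All 8 genes had a row. Integrins are cell surface receptors made of an alpha and a beta chain, which together bind collagens, laminins, fibronectin, vitronectin or latent TGF-beta outside the cell. The short tail of most beta chains binds talin and kindlin inside the cell and so links the receptor to actin, whereas the long tail of the beta4 chain binds keratin filaments through plectin. In neuroblastoma, as in other tumours, integrins mediate adhesion to the matrix and invasion. ARID1A and ARID1B are alternative subunits of the BAF chromatin remodelling complex, which opens chromatin mostly at enhancers.

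Cells in every condition were transduced with lentiviral shRNA, and total RNA was taken 72 h later in 3 libraries per condition, 21 in all, described as biological triplicates. Beside Control, each of the labels shARID1A (numbered 2 and 4), shARID1B (2 and 3) and shARID1A/B (2.3 and 4.2) covers a pair of conditions, where the study's methods describe a non-silencing control, 2 different shRNAs for each gene and 2 combinations of them. The deposited value is the number of reads on a gene divided by 1 size factor per library, and the libraries held 27954334 to 41077638 reads with a median of 34973565. Of the markers of noradrenergic neuroblastoma cells, MYCN had values of 77312 to 426870, HAND2 of 5778 to 19481 and GATA3 of 7302 to 11433 over the 21 libraries. Nothing beyond the word biological says how the 3 libraries of a condition were made apart, so the p-values measure the spread between these libraries.

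The silenced genes were read first, since they show what each label stands for. ARID1A had values of 6097 to 6463 in Control, 2109 to 2169 in shARID1A.2, 2157 to 2289 in shARID1A.4, 1882 to 1962 in shARID1B.2 and 2450 to 2507 in shARID1B.3, but 5510 to 5752 in shARID1A/B.2.3 and 5352 to 5589 in shARID1A/B.4.2. The ARID1B transcript ranged from 5791 to 5804 in Control, 2224 to 2252 in shARID1A.2, 3065 to 3126 in shARID1A.4, 2540 to 2651 in shARID1A/B.2.3 and 1881 to 1955 in shARID1A/B.4.2, but 4913 to 5056 in shARID1B.2 and 6038 to 6182 in shARID1B.3. The libraries labelled shARID1A therefore had both transcripts low, those labelled shARID1B had ARID1A low, and those labelled shARID1A/B had ARID1B low. The labels shARID1B and shARID1A/B go against the transcripts. So does the label shARID1A, which names ARID1A alone although ARID1B was low as well. All conditions are called by their labels below. The small changes of the other gene were log2 fold changes of -0.21 and 0.07 for ARID1B in shARID1B.2 and shARID1B.3, and of -0.16 and -0.21 for ARID1A in shARID1A/B.2.3 and shARID1A/B.4.2, of which the last was -0.03 and not called with scaling to total reads.

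**Figure D1:**
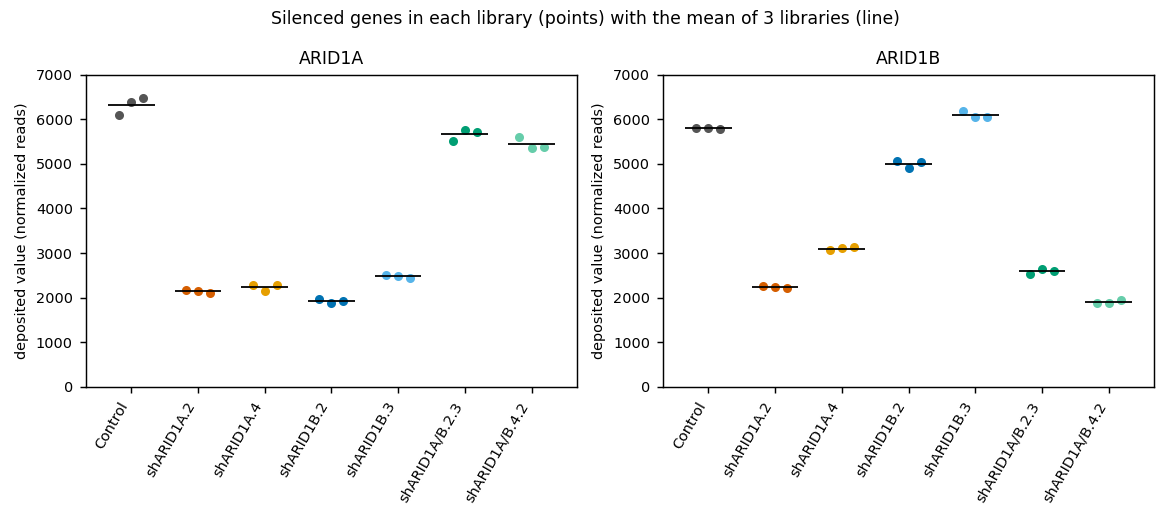
Deposited values (y axis, normalized reads) of ARID1A and ARID1B in the 7 conditions (x axis), with 1 point per library and a line at the mean of 3. ARID1A is low in the 4 conditions labelled shARID1A or shARID1B, and ARID1B is low in the 4 labelled shARID1A or shARID1A/B.

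The beta subunits differed widely in level. Divided by the length of their merged exons (GENCODE release 29, GRCh38), the Control values averaged 6157 normalized reads per kb for ITGB1, 495 for ITGB5, 45.7 for ITGB8, 38.2 for ITGB3, 3.19 for ITGB4, 2.29 for ITGB7, 0.528 for ITGB6 and 0.405 for ITGB2. ITGB1 made up a median of 91.4% of the beta subunit signal per kb in Control. Its share was 76.9% in shARID1A.2 and 71.6% in shARID1B.2, where ITGB5, at a median of 7.28% in Control, made up 21.9% and 25.6%, and it was 95.3% in shARID1B.3. Summed over the beta subunits, the level per kb ranged from 6660 to 6876 in Control, from 2837 to 3009 in shARID1A.2 and 2726 to 2740 in shARID1B.2, with 4893 to 6439 in the libraries of the other 4 silenced conditions. ITGB2 and ITGB6 did not pass the filter on low values, so that 6 of the 8 genes were tested.

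Against Control, 5 of the 6 tested genes were called at an adjusted p-value under 0.05 in shARID1A.2, 3 lower and 2 higher, while of all 18584 genes tested 76.1% were called, 38.2% lower and 37.9% higher. In shARID1A.4, 4 genes were lower and 1 higher, beside 73.6% of all genes (36.6% lower, 37.0% higher). In shARID1B.2, 2 were lower and 3 higher, beside 65.6% (34.0% lower, 31.6% higher), and in shARID1B.3, 3 were lower and 1 higher, beside 63.9% (32.0% lower, 31.9% higher). For both shARID1A/B.2.3 and shARID1A/B.4.2, 3 genes were lower and 1 higher, beside 69.2% (34.0% lower, 35.2% higher) and 71.2% (36.1% lower, 35.1% higher). A call was thus usual for any gene in this experiment, and the share of beta subunits called was near that of all genes. With a log2 fold change over 1 in size as well, 2, 1, 3, 3, 1 and 1 of the 6 genes were called in these conditions in the same order, beside 24.8%, 21.4%, 12.0%, 11.8%, 16.1% and 18.4% of all genes. In bulk RNA, fewer cells that express a gene and less RNA of it per cell cannot be told apart.

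**Figure D2:**
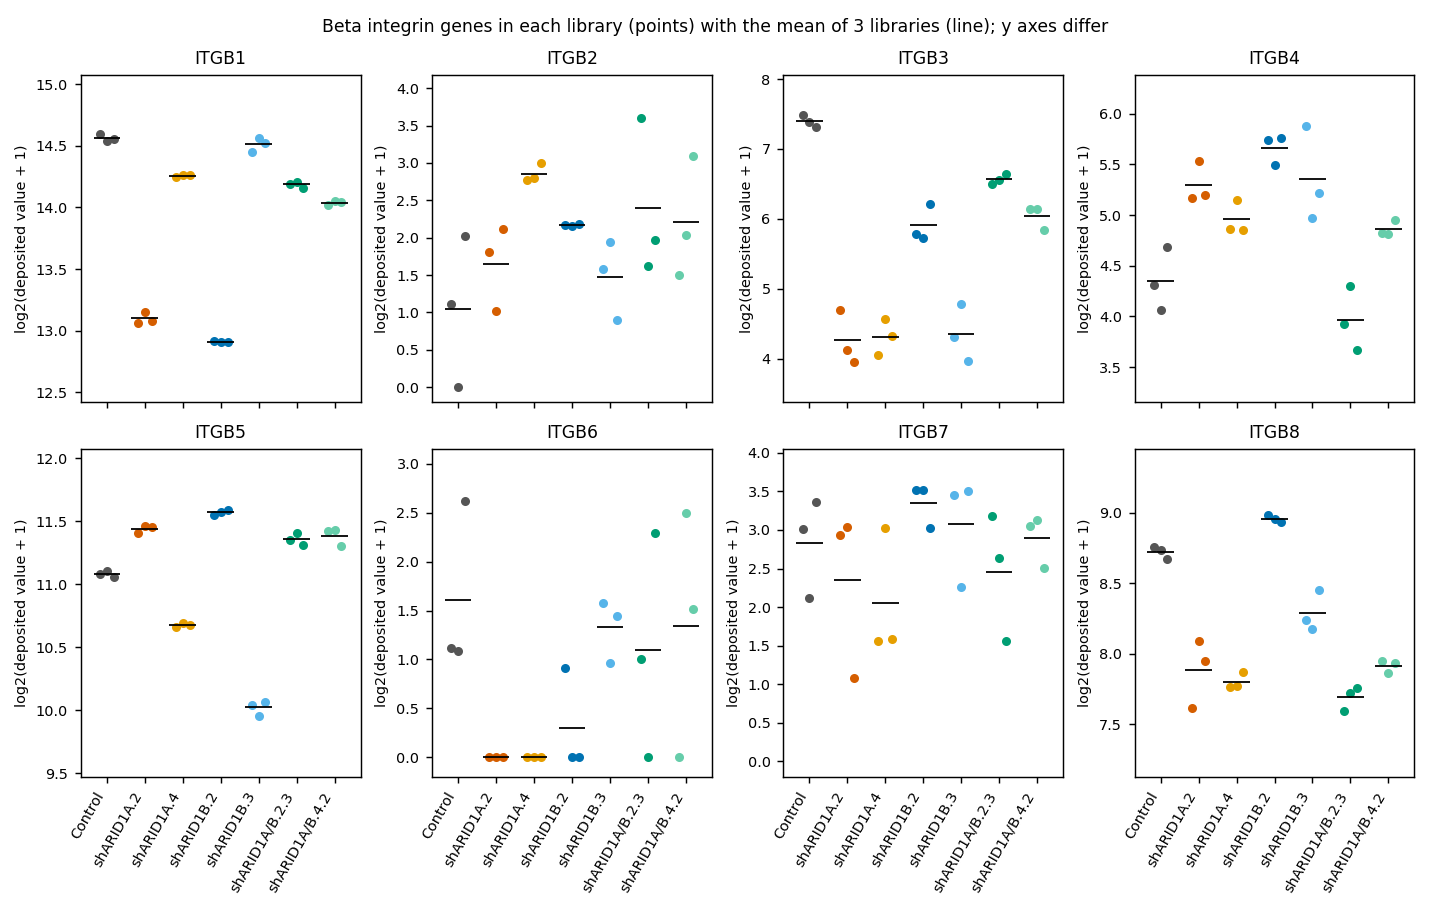
Log2 of the deposited value plus 1 (y axis, different for each gene) of the 8 beta integrin genes in the 7 conditions (x axis), with 1 point per library and a line at the mean of 3. ITGB3 is below Control in every silenced library, ITGB1 is lowest in shARID1A.2 and shARID1B.2, and ITGB5 lies on both sides of Control.

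ITGB1 (chromosome 10, 32900319 to 33005792, minus strand, GRCh38) encodes the beta1 chain, the common partner of the collagen, laminin and fibronectin receptors. Its values were 24712, 23850 and 24032 in Control, 8571, 9124 and 8667 in shARID1A.2, and 7750, 7673 and 7679 in shARID1B.2. The other conditions held 19428, 19634 and 19691 in shARID1A.4, 22418, 24242 and 23491 in shARID1B.3, 18735, 18947 and 18241 in shARID1A/B.2.3, and 16565, 16958 and 16896 in shARID1A/B.4.2. Only Control and shARID1B.3 overlapped, and the order below them was shARID1A.4, shARID1A/B.2.3, shARID1A/B.4.2, shARID1A.2 and shARID1B.2, with no overlap between neighbours. ITGB1 fell by 1.46 on the log2 scale in shARID1A.2 (standard error 0.03, adjusted p = 1.86e-24) and by 1.65 in shARID1B.2 (standard error 0.03, adjusted p = 7.26e-25). The falls were smaller in shARID1A/B.4.2, by 0.53, in shARID1A/B.2.3, by 0.38, and in shARID1A.4, where the mean was 19584 ± 138 (SD, n = 3) against 24198 ± 454 in Control. In shARID1B.3 the log2 fold change was -0.05 (95% interval -0.10 to 0.00, adjusted p = 0.0904), which was called, at -0.08, without shARID1B.3 replicate 2. ARID1A was low in shARID1A.2, shARID1A.4, shARID1B.2 and shARID1B.3, but it also differed between the last 2. It was 0.37 lower on the log2 scale in shARID1B.2 (adjusted p = 3.31e-11), the condition with the lowest ITGB1. Between shARID1A.2 and shARID1A.4 the difference was -0.06 for ARID1A, -0.47 for ARID1B (adjusted p = 2.03e-15) and -1.16 for ITGB1. For ARID1B the difference between shARID1B.2 and shARID1B.3 was -0.28 (adjusted p = 6.49e-11). The lowest ARID1B values were in shARID1A/B.4.2, where ITGB1 fell by 0.53. Whether ITGB1 goes with the level of ARID1A or of ARID1B was not tested.

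ITGB5 (chromosome 3, 124761948 to 124901418, minus strand) encodes the beta5 chain, which pairs with alphav as a vitronectin receptor. It had values of 2161, 2200 and 2131 in Control, 2714, 2816 and 2809 in shARID1A.2, 2990, 3046 and 3079 in shARID1B.2, 2611, 2706 and 2543 in shARID1A/B.2.3, and 2745, 2755 and 2529 in shARID1A/B.4.2, all above Control. In shARID1A.4 the values were 1618, 1652 and 1635, and in shARID1B.3 they were 1054, 989 and 1072, all below Control. The shARID1A.2, shARID1A/B.4.2 and shARID1A/B.2.3 libraries overlapped with their neighbours in this order, and the other conditions did not overlap. ITGB5 rose by 0.36 in shARID1A.2, 0.49 in shARID1B.2, 0.28 in shARID1A/B.2.3 and 0.31 in shARID1A/B.4.2 on the log2 scale (standard error 0.03 in each, highest adjusted p = 1.25e-07). It fell by 0.40 in shARID1A.4 and by 1.06 in shARID1B.3, to 0.48 of the Control level.

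ITGB1 and ITGB5 were called in opposite directions in 4 of the 6 silenced conditions. Their ratio per kb ranged from 12.1 to 12.7 in Control, from 3.43 to 3.60 in shARID1A.2, 2.78 to 2.88 in shARID1B.2, 7.79 to 7.98 in shARID1A/B.2.3 and 6.71 to 7.43 in shARID1A/B.4.2. In shARID1A.4 it was 13.2 to 13.4 and in shARID1B.3 it was 23.7 to 27.3, so that both of these conditions lay above Control. No 2 conditions overlapped in this ratio.

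**Figure D3:**
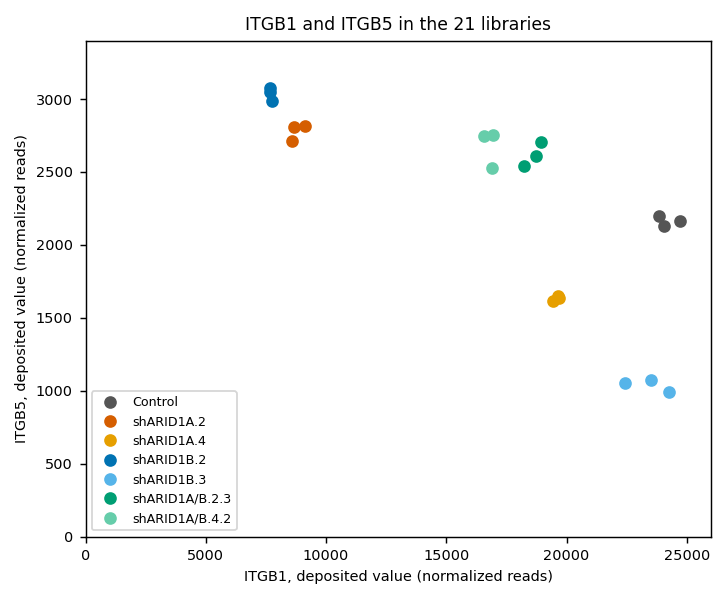
ITGB1 (x axis) and ITGB5 (y axis), both as deposited values in normalized reads, with 1 point for each of the 21 libraries coloured by condition. The libraries of a condition lie close together, shARID1A.2 and shARID1B.2 at low ITGB1 and high ITGB5, and shARID1B.3 at Control-like ITGB1 and the lowest ITGB5 of 989 to 1072.

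The promoters of these 2 genes are shown because they are the most abundant beta subunits and differ in base composition. Each run is the last 250 bases before the transcription start in the RefSeq table (GRCh38.p14), which held 5 of the 8 genes, read 5′ to 3′ on the minus strand at chr10:32958231-32958480 for ITGB1 and chr3:124901419-124901668 for ITGB5. The table lists 2 starts for ITGB1 and 3 for ITGB5, and the start used here is the 5′ end of the RefSeq gene. For ITGB1 this start, at position 32958230, lies inside the longer gene span of GENCODE given above. Capitals mark the letters GGAATG, the core of the TEAD motif.
ITGB1: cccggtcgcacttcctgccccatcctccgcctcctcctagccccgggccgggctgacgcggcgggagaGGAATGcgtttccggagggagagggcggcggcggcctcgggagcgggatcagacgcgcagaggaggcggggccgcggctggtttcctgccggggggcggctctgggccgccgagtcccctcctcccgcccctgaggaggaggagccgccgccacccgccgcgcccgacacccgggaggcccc
ITGB5: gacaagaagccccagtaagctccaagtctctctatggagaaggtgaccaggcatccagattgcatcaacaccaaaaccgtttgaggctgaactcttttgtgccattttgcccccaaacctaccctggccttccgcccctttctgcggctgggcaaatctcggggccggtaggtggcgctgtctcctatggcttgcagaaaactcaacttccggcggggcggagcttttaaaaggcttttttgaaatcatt
The ITGB1 window had a GC content of 78.4% and 32 CG dinucleotides, and the ITGB5 window 52.8% and 9, against medians of 58.0% and 11 over 35116 promoters of the same length. GGAATG, searched on both strands, stood 182 bases before the ITGB1 start and was not in the ITGB5 window, and 11.9% of all promoters held it. The AP-1 motif TGANTCA, likewise searched on both strands and held by 6.57% of all promoters, was in neither window, so no matches overlapped.

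ITGB3 (chromosome 17, 47253846 to 47311816, plus strand) encodes the beta3 chain, the partner of alphav and of the platelet chain alphaIIb in receptors for vitronectin and fibrinogen. Its values were 179, 167 and 158 in Control, and 24.9, 16.5 and 14.5 in shARID1A.2, 15.5, 22.6 and 18.96 in shARID1A.4, and 18.9, 26.6 and 14.7 in shARID1B.3. In shARID1B.2 they were 54.3, 52.1 and 72.9, in shARID1A/B.4.2 69.2, 69.5 and 56.2, and in shARID1A/B.2.3 89.1, 92.7 and 99.2. Every silenced library was below every Control library, shARID1A.2, shARID1A.4 and shARID1B.3 overlapped as the lowest 3 conditions, and shARID1B.2 overlapped with shARID1A/B.4.2. ITGB3 was the only beta subunit called lower in all 6 silenced conditions. It fell by 3.14 on the log2 scale in shARID1A.2, 3.09 in shARID1A.4 and 3.04 in shARID1B.3, the largest falls among the tested beta subunits in these conditions (standard error 0.21, highest adjusted p = 4.80e-12). The falls were by 1.49 in shARID1B.2 (adjusted p = 1.13e-06), by 1.36 in shARID1A/B.4.2 (adjusted p = 3.51e-06) and by 0.83 in shARID1A/B.2.3 (adjusted p = 0.00119). The lowest conditions rest on 13 to 30 reads per library, against 149 to 154 in Control. Adding 1 before taking the log makes these fold changes smaller than the true change of such low genes.

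ITGB8 (chromosome 7, 20330702 to 20415754, plus strand) encodes the beta8 chain, which pairs with alphav and activates latent TGF-beta. It had values of 431, 424 and 408 in Control, 195, 271 and 246 in shARID1A.2, 217, 218 and 233 in shARID1A.4, 192, 210 and 215 in shARID1A/B.2.3, and 246, 232 and 244 in shARID1A/B.4.2. These 4 conditions, all with low ARID1B, lay below every other library, and shARID1A.2 overlapped with the other 3. In shARID1B.3 the values were 301, 288 and 349, below Control, and in shARID1B.2 they were 504, 494 and 487, above Control. ITGB8 fell by 0.84 in shARID1A.2, 0.92 in shARID1A.4, 1.03 in shARID1A/B.2.3 and 0.81 in shARID1A/B.4.2 on the log2 scale (standard error 0.09, highest adjusted p = 1.56e-08), and by 0.43 in shARID1B.3 (adjusted p = 0.000161). It rose by 0.23 in shARID1B.2 (adjusted p = 0.0243), a call that was lost without Control replicate 3 (0.21), shARID1B.2 replicate 1 (0.22) or shARID1B.2 replicate 2 (0.23). The summed value of 6 fibroblast markers, all of which passed the filter, such as the collagen COL1A1 and the receptor PDGFRB, was 35281 to 35848 in Control, 32067 to 33473 in shARID1B.2, 29044 to 30684 in shARID1B.3 and 12269 to 19748 in the 4 conditions with low ARID1B. This sum was thus lowest in the same conditions as ITGB8, and its part in the ITGB8 values was not tested. The markers differed widely in level, with COL1A1 at 742 to 13319 over the 21 libraries but COL1A2 at 1 to 24.7.

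ITGB4 (chromosome 17, 75721328 to 75757818, plus strand) encodes the beta4 chain, which pairs with alpha6 as the laminin receptor of hemidesmosomes. Its values were 18.8, 15.7 and 24.6 in Control, 34.9, 45.3 and 35.6 in shARID1A.2, 28.2, 34.5 and 27.9 in shARID1A.4, 52.5, 44.0 and 53.4 in shARID1B.2, and 57.7, 30.4 and 36.3 in shARID1B.3, so that all of these silenced libraries were above Control. In shARID1A/B.4.2 the values were 27.3, 27.0 and 30.0, also above Control, and in shARID1A/B.2.3 they were 14.2, 18.8 and 11.7, overlapping with it. ITGB4 was higher in shARID1B.2, by 1.32 (standard error 0.23, adjusted p = 2.45e-05), in shARID1B.3, by 1.01 (adjusted p = 0.000563), and in shARID1A.2, by 0.95 (adjusted p = 0.000751), all on the log2 scale. The rise by 0.61 in shARID1A.4 (adjusted p = 0.0223) was lost without Control replicate 1 (0.59), Control replicate 2 (0.46) or shARID1A.4 replicate 2 (0.51), and with no filter or DESeq2, over a range of adjusted p-values from 0.00912 to 0.108. The differences of 0.51 in shARID1A/B.4.2 (95% interval 0.03 to 0.99, adjusted p = 0.0527) and -0.38 in shARID1A/B.2.3 (adjusted p = 0.147) were not called. The first of these was called with total read or TMM scaling, with at least 10 reads in every library, without Control replicate 3 (0.68), and without replicates 1 or 2 of shARID1B.3 or 2 or 3 of shARID1A/B.2.3 (0.51 each).

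The values of ITGB4 rest on 12 to 60 reads per library. GALK1, on the opposite strand and overlapping ITGB4, had values of 255 to 418, and the sources used here do not say whether strand was used in counting. The summed value of 6 epithelial markers, of which 2 passed the filter, was 73.9 to 92.8 in Control, 231 to 247 in shARID1A.2, 112 to 156 in shARID1A.4, 148.5 to 172 in shARID1B.2, 124 to 128 in shARID1B.3, 66.7 to 84.05 in shARID1A/B.2.3 and 165 to 198 in shARID1A/B.4.2. It was mostly EPCAM, an adhesion molecule of epithelial cells, at 58.4 to 227, and the keratin KRT17 was at 2.85 to 52.5. The basal keratin KRT5 was at 0 in every library, KRT14 reached 1.75, TP63 3.5 and CDH1 5.41. The part of these markers in the ITGB4 values was not tested.

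The other beta subunits were near the limit of detection. ITGB7 (chromosome 12, 53191318 to 53207307), the beta7 chain of gut-homing lymphocytes, had values of 1.11 to 10.5 (1 to 12 reads per library) and was called in no condition against Control, with log2 fold changes of -0.78 to 0.52 and 95% intervals that reached from -1.92 to 1.67 over the 6 conditions. ZNF740, overlapping on the opposite strand, had values of 1736 to 2942. ITGB2, the beta2 chain of leukocyte integrins, had values of 0 to 11.1 and 76 reads over the 21 libraries. With no filter it was called higher in shARID1A.4 (adjusted p = 0.0120), with 6, 5 and 7 reads against 1, 0 and 3 in Control, and in no other condition against Control. ITGB6, the beta6 chain of epithelial cells and an activator of latent TGF-beta, had 26 reads in all, with 1, 1 and 5 reads in the Control libraries and 0 reads in each of the 6 libraries labelled shARID1A, a count that allows up to 3 reads per library. ITGB6 was tested only with no filter, where it was called lower in shARID1A.2 (adjusted p = 0.0214) and shARID1A.4 (adjusted p = 0.0230) than in Control, and in shARID1A than in shARID1A/B (adjusted p = 0.0193). No fold is given for counts this low. Leukocyte markers summed to 104 to 484 over 8 genes, of which 5 passed the filter, mostly PTPRC at 57.3 to 426, with CD3E and SPI1 at a median of 0. The sum was 458 to 484 in Control and 104 to 363 in the silenced libraries, and its part in the beta subunit values was not tested.

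**Figure D4:**
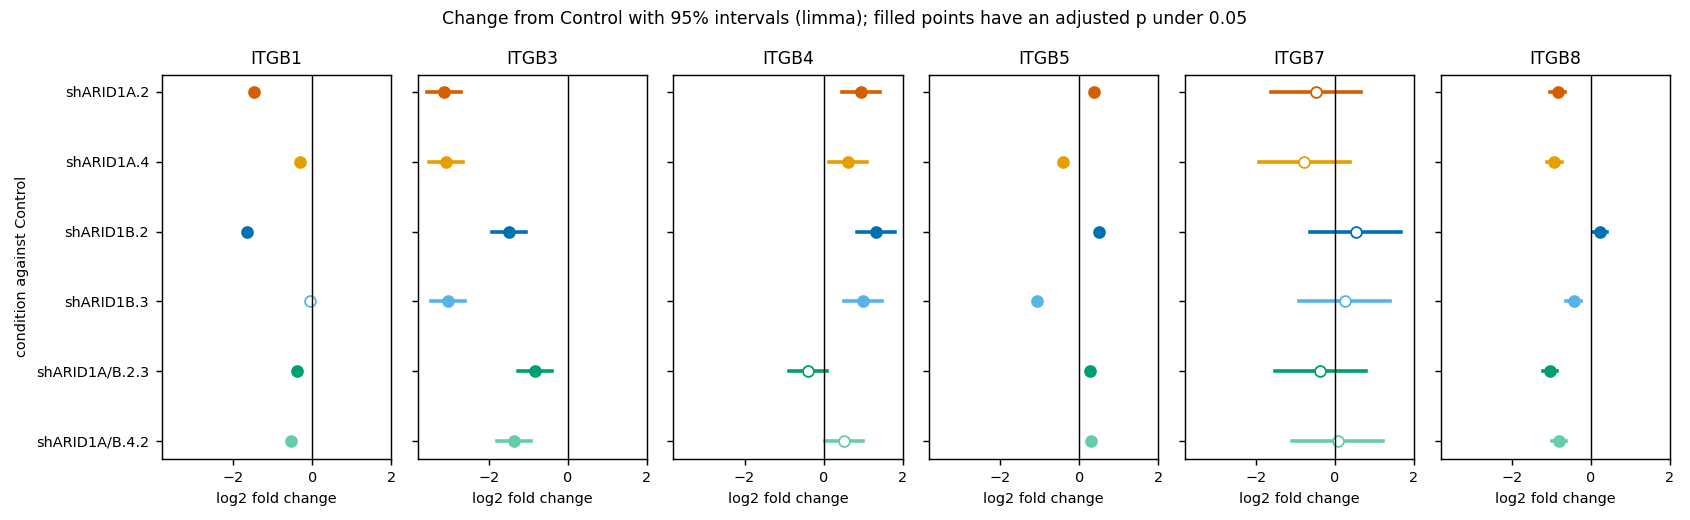
Log2 fold change from Control (x axis, scale of the deposited value plus 1) of the 6 tested beta integrin genes in the 6 silenced conditions (y axis), with 95% intervals from limma. Filled points have an adjusted p under 0.05. ITGB3 lies below 0 throughout, ITGB5 lies on both sides, and no ITGB7 point is filled.

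The conditions of 1 label were set against each other to ask whether the subunits changed alike in them. Between shARID1A.2 and shARID1A.4, in both of which both transcripts were low, 2 of the 6 genes differed (75.8% of all genes, and 23.9% with a log2 difference over 1 in size). ITGB1 was 1.16 lower and ITGB5 0.77 higher in shARID1A.2 on the log2 scale (adjusted p = 1.65e-22 and 3.27e-16). ITGB3 and ITGB8 were not called different, at -0.05 (95% interval -0.49 to 0.39) and 0.08 (-0.10 to 0.27). The ITGB8 difference was called with total read scaling, at 0.23, and without shARID1A.2 replicate 1, at 0.22, and was -0.02 without replicate 2. Between shARID1B.2 and shARID1B.3, 4 genes differed (66.0%, and 13.7% with a difference over 1). ITGB1 was 1.60 lower and ITGB3, ITGB5 and ITGB8 were 1.55, 1.55 and 0.67 higher in shARID1B.2, and ITGB4 was not called at 0.31, though it was, at 0.57, without shARID1B.3 replicate 1. For shARID1A/B.2.3 and shARID1A/B.4.2, 4 genes differed (74.9%, and 22.3% with a difference over 1), but by less. ITGB5 was not called different at -0.03, but was at -0.18 with total read scaling. ITGB4 was 0.90 lower in shARID1A/B.2.3, and ITGB1 was 0.15 higher, which turned to -0.003 with total read scaling. ITGB3 was 0.53 higher there, a call lost with no filter, with total read scaling (0.38) and without shARID1A/B.2.3 replicate 2 (0.53) or 3 (0.48) or shARID1A/B.4.2 replicate 3 (0.43). ITGB8 was 0.22 lower, a call lost with DESeq2 and without shARID1A/B.2.3 replicate 1 (-0.18) or shARID1A/B.4.2 replicate 1 (-0.21) or 3 (-0.21).

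Each label was then taken as the mean of its 2 conditions and the labels were compared directly, without Control. The libraries labelled shARID1A, with both transcripts low, differed from those labelled shARID1B, with ARID1A low, in 5 of the 6 genes (67.3% of all genes, and 6.03% with a log2 difference over 1 in size). ITGB3 was 0.85 lower and ITGB8 0.78 lower in them (adjusted p = 2.12e-05 and 6.28e-11), ITGB5 was 0.26 higher, and ITGB1 was not called different at -0.03 (95% interval -0.07 to 0.00), although it was called with TMM scaling (-0.04) and without shARID1A.2 replicate 2 (-0.05) or shARID1B.3 replicate 1 (-0.05). The lower ITGB4 (-0.38) was lost with no filter, DESeq2 or the replicate block, and without any 1 of replicates 1 and 3 of shARID1A.2, shARID1A.4 or shARID1B.2 or replicate 1 of shARID1B.3 (-0.36 to -0.25). The lower ITGB7 (-1.01) was lost with no filter or DESeq2, and without replicate 3 of shARID1A.2, 1 or 3 of shARID1A.4, 1 or 2 of shARID1B.2 or 1 or 3 of shARID1B.3 (-0.97 to -0.69). Against the libraries labelled shARID1A/B, with ARID1B low, 4 genes differed (59.2%, and 3.62% with a difference over 1). ITGB3 was 2.02 lower (adjusted p = 2.32e-11), ITGB1 0.43 lower and ITGB5 0.31 lower in shARID1A, ITGB4 was 0.71 higher, and ITGB8 was not called different at 0.04 (95% interval -0.09 to 0.17). Between shARID1A/B and shARID1B, 5 genes differed (70.2%, and 8.03% with a difference over 1), with ITGB3 1.17, ITGB5 0.58 and ITGB1 0.40 higher and ITGB4 1.10 and ITGB8 0.82 lower in shARID1A/B. For ITGB1, ITGB3 and ITGB5 these means join conditions of 1 label that differed from each other by up to 1.60. The lower ITGB3 in shARID1A than in shARID1B goes with shARID1B.2, at a mean value of 59.8, since shARID1B.3, at 20.1, overlapped with shARID1A.2 and shARID1A.4, at 18.6 and 19.03.

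Beta chains reach the cell surface only with an alpha partner, and of 18 alpha subunit genes 15 were tested. With the conditions in the order of the counts given above, from shARID1A.2 to shARID1A/B.4.2, 12, 11, 9, 9, 11 and 11 of them were lower and 0, 1, 0, 1, 2 and 0 higher than Control, beside the shares of all genes given above. Their median log2 fold changes were -1.21, -1.69, -0.76, -0.65, -1.07 and -0.86, where the median over all genes was 0.01 to 0.02. ITGAV encodes the alphav chain, which pairs with several beta chains, among them beta3, beta5, beta6 and beta8. ITGAV, which was named after its values were seen, was 9164 to 9692 in Control and 1714 to 4280 in the silenced libraries. It fell in all 6 conditions, by 1.18 on the log2 scale in shARID1A/B.2.3 to 2.34 in shARID1A.4. ITGA9, a beta1 partner, fell by 1.32 in shARID1B.2, the least, to 2.74 in shARID1A.4. ITGA2, of a collagen receptor with beta1, fell by 2.42 in shARID1A.4 and was 0.17 higher in shARID1B.3 (adjusted p = 0.0493). ITGA4, a partner of beta1 and beta7, fell by 2.59 in shARID1A.4, and ITGA8, a beta1 partner, by 3.31 in shARID1B.3. The ITGA8 values there were low, at 1.90 to 11.2 against 63.4 to 80.6 in Control. ITGA8 was not called in shARID1B.2 (-0.54) or shARID1A/B.2.3 (-0.29). ITGA5, the fibronectin receptor chain with beta1, also named after its values were seen, was 273 to 299 in Control, 48.4 to 66.5 in shARID1A.2 and 712 to 750 in shARID1A/B.2.3. In shARID1A/B.4.2 it was 81.1 to 105, and it was also called lower in shARID1B.2 and shARID1B.3, but not in shARID1A.4.

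**Figure D5:**
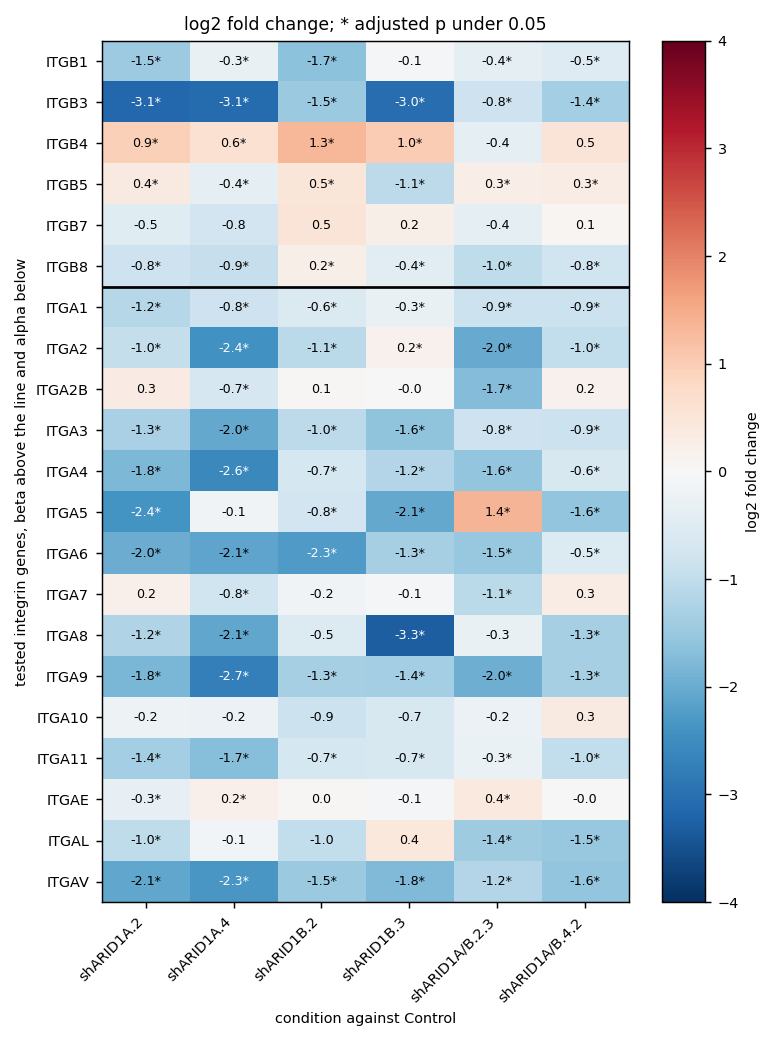
Log2 fold change from Control (colour, with the number in each cell) of the 6 tested beta and 15 tested alpha integrin genes (y axis) in the 6 silenced conditions (x axis), with a star at an adjusted p under 0.05. ITGA1, ITGA3, ITGA4, ITGA6, ITGA9, ITGA11 and ITGAV are blue with a star in every column, like ITGB3, while ITGB4 and ITGB5 hold red cells.

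The list of beta tail adaptors and activators held 26 genes, not all of which bind the tail itself, and 23 were tested. In the same order of conditions, 20, 15, 19, 16, 9 and 19 were lower and 2, 4, 2, 2, 9 and 2 higher, beside 32.0% to 38.2% of all genes lower and 31.6% to 37.9% higher over these conditions, with medians of -0.83, -0.36, -0.59, -0.27, -0.16 and -0.54. TNS3, tensin 3 of focal adhesions, was 840 to 888 in Control and fell by 3.47 in shARID1A.2, to 62.3 to 96.9, and by 2.82 in shARID1A/B.4.2, but was 0.27 higher in shARID1A/B.2.3. TNS1, tensin 1, fell by 2.09 in shARID1A.2 and rose by 0.64 in shARID1A/B.2.3. The kindlin FERMT1, which activates integrins through the beta tail, was 189 to 201 in Control, 822 to 914 in shARID1A.4 and 828 to 846 in shARID1A/B.2.3, and 133 to 186 in the other silenced conditions. FERMT3, the kindlin of blood cells, fell by 2.07 in shARID1B.2, from 42.3 to 48.3 down to 8.10 to 11.4.

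Of 8 hemidesmosome partners of the beta4 chain, 7 were tested, and 6, 4, 5, 5, 4 and 5 were lower, with 1 higher in shARID1A/B.2.3 and 0 in the others, beside the same shares of all genes. ITGA6, its alpha6 chain, was 585 to 599 in Control and 103 to 424 in the silenced libraries, and fell in all 6 conditions, by 0.53 in shARID1A/B.4.2 to 2.28 in shARID1B.2. ITGB4 and ITGA6 were thus called in opposite directions in shARID1A.2, shARID1B.2 and shARID1B.3 and, with the limits given for ITGB4, in shARID1A.4. The tetraspanin CD151, which binds laminin receptors, fell by 1.39 in shARID1A.2, and the laminin chains LAMA3 and LAMB3 fell by 1.98 in shARID1A/B.2.3 and by 1.88 in shARID1A.2, the last from values of 6.72 to 14.1.

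The list for latent TGF-beta held 9 genes, of TGF-beta ligands and of proteins that bind them, and all were tested. In the same order of conditions, 6, 8, 4, 6, 4 and 5 were lower and 3, 1, 4, 2, 3 and 2 higher. Of all genes, 63.9% to 76.1% were called in 1 direction or the other. LRRC32, which holds latent TGF-beta on the cell surface, was 122 to 142 in Control and 12.5 to 38.2 in the 4 conditions with low ARID1A, while in shARID1A/B.2.3 and shARID1A/B.4.2 it was 113 to 230. LTBP4, a latent TGF-beta binding protein, rose in all 6 conditions, by 0.38 in shARID1A/B.2.3 to 1.64 in shARID1A.2. The ligand TGFB2 was 101 to 107 in Control and 33.9 to 34.5 in shARID1B.3, where it fell by 1.58. It was also called lower in shARID1A.2, shARID1A.4 and shARID1A/B.2.3, but higher in shARID1B.2, by 0.43, and in shARID1A/B.4.2, by 0.53. LTBP1, another latent TGF-beta binding protein, fell by 1.57 in shARID1A.4. Of 10 genes for integrin uptake and recycling, 8 were tested, and 5, 3, 5, 3, 4 and 4 were lower and 2, 4, 1, 4, 3 and 1 higher, so that 5 to 7 of 8 were called, beside the same share of all genes. RAB21, a GTPase that binds alpha tails in endosomes, fell in all 6 conditions, by 0.75 to 1.52. ARF6, of recycling to the membrane, fell by 1.41 in shARID1A/B.4.2, and the endosome tether EEA1 by 1.22 in shARID1A.4. The divergent transcript ITGB1-DT, which overlaps ITGB1 on the opposite strand, had values of 3.36 to 6.16 in Control and 8.91 to 14.4 in shARID1A.2, where it was 1.15 higher (adjusted p = 0.0190), and it was also called higher in shARID1B.2, at an adjusted p of 0.05 once rounded, and in shARID1A/B.4.2. ITGB2-AS1 and ITGB5-AS1 were at 0 in every library.

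The genes most like each subunit were taken as those with the highest Pearson correlation of their 7 condition means, among 13675 genes with a mean value of at least 50. All points share the same libraries, and so many genes compared over 7 points give high values for any pattern. They were RNF216P1, NUS1 and CAPZB for ITGB1 (0.99 each), RHBDF1, XPR1 and GMEB2 for ITGB3 (0.97 to 0.99), RPL22P1, GEMIN8 and JOSD2 for ITGB4 (0.98 each), COL26A1, TBC1D23 and STOM for ITGB5 (0.99 each), and CBWD5, MAP3K13 and CHIC2 for ITGB8 (0.97 to 0.98). For ITGB7, at 1 to 12 reads, they were MINPP1, DNAH10 and ATP6AP2 (0.92 to 0.97).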

How the data were processed

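RNA-Seq libraries were made with a stranded mRNA kit and sequenced on a NovaSeq instrument. Per the labels' processing notes the authors used STAR 2.5.3a, RSEM 1.3.0, DESeq2 1.26.0 and GRCh38; the annotation and the strand setting are not given in the sources used here. The deposited table holds a signal, the reads of each gene divided by 1 size factor per library (0.841 to 1.295). Multiplying by these factors gave whole numbers for 100% of entries (largest deviation 0.0066 read, tolerance 0.01). The authors also gave tables of their own fold changes and p-values, which were not used.

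Log2 of the value plus a pseudocount of 1 was fitted with limma 3.58.1 (trend, two-sided) over 7 conditions of 3 libraries, for the 18584 genes passing edgeR's filter by condition, with Benjamini-Hochberg adjustment over all of them. "Called" means an adjusted p under 0.05. Alternatives were edgeR 4.0.16 (quasi-likelihood, TMM) and DESeq2 1.42.0 (Wald) on recovered reads, other scalings, filters and pseudocounts, and leaving out each library. The fits were tested on simulated data with 200 changed genes of 18584 in shARID1A.2, of which each tool found 199. In the real data 76.1% of genes were called in shARID1A.2, so the simulation does not show how the fits do when most genes change.

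The members and lists were chosen with earlier results of these data known. Beside all members, the genes named were at most 4 per list, called with a log2 fold change over 1 in size against Control, by size, and 3 most alike per tested subunit; ITGAV and ITGA5 were added after their values were seen. Replicate libraries differed by more than sampling noise (chi-square per degree of freedom 1.56 to 3.99). Coordinates are from GENCODE 29, matched by identifier without version. R 4.3.3 was used for the tests and Python for coordinates and figures.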

Additional observations from a re-analysis of the deposited data

Results flagged for a closer look

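The subunits below differed between 2 conditions that carry the same label, by limma's test of the difference itself, on the log2 scale. Between shARID1A.2 and shARID1A.4, ITGB1 differed by -1.16 and ITGB5 by 0.77. Between shARID1B.2 and shARID1B.3, ITGB1 differed by -1.60, ITGB3 by 1.55, ITGB5 by 1.55 and ITGB8 by 0.67. In these 4 conditions ARID1A was low throughout, and ARID1B was low only in the first pair. Between shARID1A/B.2.3 and shARID1A/B.4.2, in both of which ARID1B was low, ITGB1 differed by 0.15, ITGB3 by 0.53, ITGB4 by -0.90 and ITGB8 by -0.22. Different shRNAs, and the transcripts they lowered to different levels, cannot be told apart in these pairs. At this call rule 75.8%, 66.0% and 74.9% of all genes differed within the 3 pairs.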

How the results depend on the processing

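Of 948 values of the 6 tested subunits and the silenced genes recomputed under the other settings, 919 kept their direction and side of the threshold, 17 lost a call, 6 gained one and 6 changed sign. No subunit changed sign against Control in these. The changes of sign were between 2 conditions of 1 label: ARID1A between shARID1A.2 and shARID1A.4 (0.086, total read scaling) and between the shARID1A/B conditions (-0.096), ITGB1 between the latter (-0.003, total read scaling), and ITGB3 between shARID1A.2 and shARID1A.4 (0.021 with edgeR, 0.017 with DESeq2, 0.092 with total read scaling). Total read scaling moved the median of all genes from Control to 0.187 in shARID1A.2, 0.145 in shARID1B.2 and 0.200 in shARID1A/B.4.2, and to 0.178, 0.114 and -0.170 within the 3 labels. With a log2 fold change over 1 in size required, fewer subunits were called by construction: 2 in shARID1A.2, 1 in shARID1A.4, 3 in shARID1B.2, 1 in shARID1A/B.2.3, 1 in shARID1A/B.4.2, 1 between the shARID1A conditions, 0 between the shARID1A/B conditions (where the unadjusted p was under 0.05 for the same 4 subunits that were called by limma without this requirement), 1 for shARID1A against shARID1B, 1 for shARID1A against shARID1A/B, and 2 for shARID1A/B against shARID1B. For shARID1A against shARID1B, 3 were called with no filter and 3 with DESeq2, against 5; the cause was not tested.

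Leaving out each library in turn gave 3 to 6 called subunits for shARID1A against shARID1B and 2 to 4 between the shARID1A/B conditions, the 2 without shARID1A/B.4.2 replicate 3. ITGB7 changed sign in shARID1A.2 (-0.833 to 0.157), shARID1B.3 (-0.108 to 0.650), shARID1A/B.2.3 (-0.732 to 0.080) and shARID1A/B.4.2 (-0.289 to 0.327), and within the 3 labels (-0.048 to 0.932, -0.128 to 0.494, -0.796 to 0.016). So did ITGB3 (-0.269 to 0.103) and ITGB8 (-0.019 to 0.216) between the shARID1A conditions, and ITGB8 for shARID1A against shARID1A/B (-0.011 to 0.107). Same-numbered libraries did not deviate together (r of -0.088 to 0.053 over 63 pairs). With the replicate number as a block, 5 subunits were still called in shARID1A.2 and shARID1A.4, 5 in shARID1B.2 and 4 in each other silenced condition, and only ITGB4 for shARID1A against shARID1B and ARID1A between the shARID1A conditions lost a call. Depth limits ITGB2, ITGB6 and ITGB7, at 12 reads or fewer per library.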
